A study of Mus musculus with 14 samples.

Results

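Chemokines are small secreted proteins that guide leukocytes. They are named after the spacing of their first cysteines (the CC, CXC, CX3C and XC families), and they act through seven-pass receptors coupled to inhibitory G proteins. Atypical receptors bind the same ligands but do not couple to G proteins, and remove or shape the ligand instead. In bone marrow the pair of Cxcl12 and its receptor Cxcr4 is known to hold stem cells and lymphoid cells in their niches, and Ccr2 is known for the exit of monocytes into the blood. The genes described here are all those on the array whose symbol begins with Ccl, Cxcl, Ccr or Cxcr and a digit, together with Cx3cl1, Cx3cr1, Xcl1, Ackr2, Ackr3 and Ackr4, taken from probes annotated to exactly 1 gene. This gave 54 of the 22180 genes named on the array, namely 34 ligands, 17 receptors and 3 atypical receptors. The choice used gene symbols and no measured value.

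The samples were bone marrow cells sorted for the surface protein Sca1 and for absence of the receptor Kit, from female nude mice (NCR-NU), a strain without a thymus. The 4 groups were 3 old mice with a primary tumor, 3 young mice with a primary tumor, 5 old cancer-free mice and 3 young cancer-free mice. Tumors were matched in size, the cancer-free mice had received Matrigel, and the labels call the mice only old or young. The titles give 1 mouse for each of the 14 arrays and call them biological replicates, and each array was made from an amplified picogram amount of total RNA. Whether cells of several mice were pooled and which tumor was used are not stated in the labels used here. Values are deposited log2 RMA values, so a difference of 1 is a doubling of the signal, and a level is compared only within a gene. All differences below are tumor-bearing minus cancer-free or old minus young, with SE from limma.

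Ptprc, which encodes the leukocyte surface protein CD45, lay between 10.53 and 11.36 on the arrays. CD45 is not among the proteins named for the sort, so this level does not check it. Kit, which the sort selected against as a protein, was above the floor for dim genes on all arrays, at 5.69 to 6.16 in old tumor-bearing, 6.10 to 7.03 in young tumor-bearing, 5.25 to 5.96 in old cancer-free and 5.25 to 6.29 in young cancer-free mice. Ly6a, which encodes Sca1, was not analysed here. Markers of natural killer cells, T cells, plasmacytoid dendritic cells and neutrophils were measured in every group. In such bulk samples fewer cells of a type and less RNA per cell cannot be told apart. The array with the lowest mean correlation with the other 13 was young tumor-bearing replicate 1, at 0.908. Next were old tumor-bearing replicates 3 and 2, both at 0.912, while the rest lay between 0.919 and 0.941.

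Of the 54 chemokine genes, 37 were bright enough to test, that is, above the median of the value table (3.88) on at least 3 arrays. They were 21 ligands, 14 receptors and 2 atypical receptors, and 22 of them were above this floor on all 14 arrays. The 17 genes left out were the ligands Ccl8, Ccl11, Ccl12, Ccl17, Ccl20, Ccl24, Ccl26, Cx3cl1, Cxcl2, Cxcl3, Cxcl5, Cxcl14 and Cxcl15, the receptors Ccr1, Ccr1l1 and Ccr3, and Ackr4. Several of these are ligands known from epithelium, eosinophil recruitment or activated macrophages. At the edge of the rule, Ccl27a was above the floor on 4 arrays and Ccr4 on 4, while Ccr1 was above it on 2 and Cx3cl1 on 2. For 9 tested genes (Ccl1, Ccl22, Ccl27a, Ccr4, Ccr9, Cxcl1, Cxcl11, Cxcl13 and Cxcr1) the mean of 1 group or more lay below it, and their differences are not exact sizes.

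None of the 37 tested genes passed Benjamini-Hochberg adjustment in limma at 0.05 in any of 7 comparisons. Over all 13805 genes tested the share called was 0% in 6 comparisons and 0.0869% for the average age difference. At unadjusted p under 0.05 the chemokine genes numbered 2 for tumor in young mice (background 5.4%), 3 for tumor in old mice (9.76%), 4 for old against young cancer-free mice (7.66%) and 7 for age in tumor-bearing mice (10.1%). For the averages they numbered 7 for tumor (10.2%) and 8 for age (13.4%), and there were 0 for the difference of the tumor effects between ages (4.42%). By direction, the 2 for tumor in young mice were lower (background 3.3% lower, 2.1% higher), and for tumor in old mice 2 were lower and 1 higher (5.56% and 4.2%). The 1 higher, Cxcl1, passed the filter on dim genes only through the old tumor-bearing arrays. It is also the 1 higher gene for tumor on average. In the cancer-free mice all 4 for age were lower (5.17%, with 2.48% higher), and in tumor-bearing mice 4 were lower and 3 higher (6.35% and 3.75%). As shares of the 37 the total counts are 5.41%, 8.11%, 10.8%, 18.9%, 18.9%, 21.6% and 0%, in the order given. For tumor on average 6 of the 7 were lower (background 6.01% lower and 4.23% higher), and for age on average 7 of the 8 were lower (background 8.97% lower and 4.44% higher). The median difference of the 37 genes was 0.05 for tumor and -0.05 for age on average, against -0.01 for both over all genes. Of the 14 receptors, 11 had a negative average age difference (48% of all genes were above 0), and of the 21 ligands 8 did. The comparisons share arrays and are not independent of each other.

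These counts moved when single arrays were left out. For age in tumor-bearing mice the count was 2 without young tumor-bearing replicate 1, 3 without old tumor-bearing replicate 2, and 4 without old tumor-bearing replicate 3 or old cancer-free replicate 5. For tumor in old mice it was 6 without old tumor-bearing replicate 2, and 5 without old tumor-bearing replicate 1 or old cancer-free replicate 3. In young mice it was 4 without tumor-bearing replicate 2, and 1 without tumor-bearing replicate 3 or cancer-free replicate 2 or 3. For age in cancer-free mice it was 2 without old replicate 2 or 4. The tumor average gave 4 without young cancer-free replicate 3, and the age average 5 without young tumor-bearing replicate 3. The interaction gave 2 without replicate 1 or 3 of the young cancer-free group, and 2 without the third old cancer-free array. It gave 1 without young cancer-free replicate 2 or young tumor-bearing replicate 2 or 3. No tested chemokine gene passed adjustment in limma in any of these runs.

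**Figure D1:**
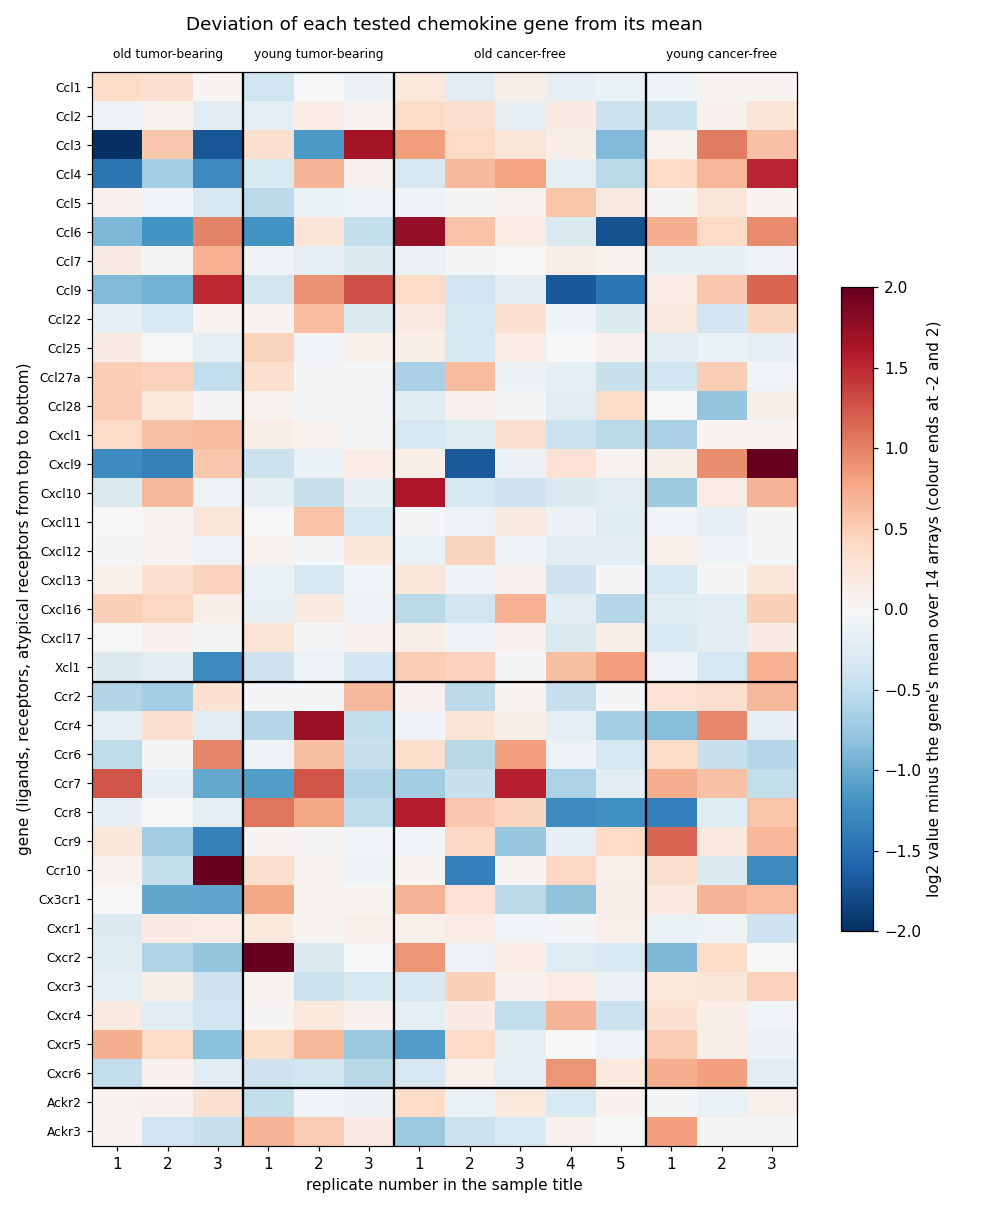
Deviation of each of the 37 tested chemokine genes from its own mean over 14 arrays, on the log2 scale, with 1 column per array, grouped as old tumor-bearing, young tumor-bearing, old cancer-free and young cancer-free. Ccl4 is lowest on the 3 old tumor-bearing arrays, and single arrays stand out for Ccr10 (old tumor-bearing replicate 3, at 7.19) and Cxcr2 (young tumor-bearing replicate 1, at 7.89).

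Promoters are printed for the genes with the smallest p in each direction in the 4 pairwise comparisons, among those at unadjusted p under 0.05 with an entry in the promoter table (RefSeq, GRCm38.p6). They show which letters lie before the start of these genes. For age in tumor-bearing mice Ccl4 (lower) and Ccl7 (higher) had the smallest p. They had no entry, so Ackr3 and Ccl1 are printed instead. Of the 54 genes 40 had an entry, with 44 promoters. Each sequence is the 250 bases before the annotated start, read 5′ to 3′ on the gene's strand. Capitals mark matches, on either strand, to the short motifs spelled out after the sequences. The regions are chr1:164935523-164935772 (minus strand) for Xcl1, chr5:90890995-90891244 (plus strand) for Cxcl1, chr5:92328080-92328329 (minus strand) for Cxcl9, chr11:82179813-82180062 (minus strand) for Ccl1, chr9:123806227-123806476 (plus strand) for Cxcr6 and chr1:90203730-90203979 (plus strand) for Ackr3.
Xcl1: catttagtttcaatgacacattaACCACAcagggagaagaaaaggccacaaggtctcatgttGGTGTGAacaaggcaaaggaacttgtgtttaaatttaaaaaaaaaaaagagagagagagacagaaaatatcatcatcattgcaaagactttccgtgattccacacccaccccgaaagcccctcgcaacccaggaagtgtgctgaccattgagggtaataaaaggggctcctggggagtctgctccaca
Cxcl1: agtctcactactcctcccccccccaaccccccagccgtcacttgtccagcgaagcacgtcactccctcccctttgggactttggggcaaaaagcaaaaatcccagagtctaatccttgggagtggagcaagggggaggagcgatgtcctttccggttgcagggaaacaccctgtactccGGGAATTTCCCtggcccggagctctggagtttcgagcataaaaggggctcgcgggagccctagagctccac
Cxcl9: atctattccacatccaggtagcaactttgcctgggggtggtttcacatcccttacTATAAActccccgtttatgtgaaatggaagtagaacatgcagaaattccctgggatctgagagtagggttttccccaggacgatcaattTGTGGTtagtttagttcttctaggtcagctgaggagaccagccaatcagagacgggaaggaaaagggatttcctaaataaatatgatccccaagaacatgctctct
Ccl1: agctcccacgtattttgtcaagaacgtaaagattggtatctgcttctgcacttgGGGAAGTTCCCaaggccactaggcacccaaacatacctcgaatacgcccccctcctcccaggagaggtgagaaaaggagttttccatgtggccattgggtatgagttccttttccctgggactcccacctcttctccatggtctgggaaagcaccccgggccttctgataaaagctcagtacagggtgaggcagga
Cxcr6: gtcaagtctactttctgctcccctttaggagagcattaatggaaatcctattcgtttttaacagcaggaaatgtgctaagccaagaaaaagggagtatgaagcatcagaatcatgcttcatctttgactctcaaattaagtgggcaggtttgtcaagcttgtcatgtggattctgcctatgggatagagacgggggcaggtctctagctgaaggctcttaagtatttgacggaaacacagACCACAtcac
Ackr3: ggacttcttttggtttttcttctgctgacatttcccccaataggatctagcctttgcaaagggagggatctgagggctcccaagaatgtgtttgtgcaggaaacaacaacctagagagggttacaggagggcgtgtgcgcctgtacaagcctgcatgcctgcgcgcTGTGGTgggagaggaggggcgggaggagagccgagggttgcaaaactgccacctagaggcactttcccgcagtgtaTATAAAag

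The NF-kappaB motif searched was GGGA and TTCC set 2 bases apart. In the Cxcl1 sequence it occurs once on each strand, overlapping by all but 1 base, from 71 bases before the start. Ccl1 has the same overlapping pair from 196 bases before the start. Over all 32851 promoters of this length 1.21% held this motif, and 6 of the 44 chemokine promoters did (13.64%). The T-box motif, GGTGTGA, lies in Xcl1 188 bases before the start, present in 3.33% of all promoters and in 2 of the 44. The Runx motif, TGTGGT, occurs in Xcl1, Cxcl9, Cxcr6 and Ackr3, in 14.05% of all promoters and in 11 of the 44 (25%). The letters TATAAA, searched for the TATA box, begin 195 bases before the start in Cxcl9 and 8 bases before it in Ackr3. They were found in 12.4% of all promoters and 13 of the 44 (29.55%). Their position was not part of the search, so a match need not be a TATA box. Close variants of these letters were not searched, so a window without a match may still hold such an element. The gamma-interferon activated site, TTCNNNGAA, was found in 7.02% of all promoters and 4 of the 44. The AP-1 motif, TGANTCA, was found in 6.75% and 5 of the 44, and neither occurs in the 6 printed windows. These matches describe letters only.

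Among the ligands, Ccl4, a CC chemokine made by natural killer cells, T cells and macrophages, had the smallest p in both averages. The Ccl4 values were 5.28, 6.05 and 5.47 in old tumor-bearing, 6.43, 7.42 and 6.82 in young tumor-bearing, 6.41, 7.39, 7.52, 6.55 and 6.20 in old cancer-free and 7.13, 7.40 and 8.26 in young cancer-free mice. All 3 old tumor-bearing arrays were below every other array of the series. Tumor-bearing minus cancer-free was -1.21 ± 0.36 (95% interval -1.98 to -0.44, adjusted p = 0.334 in limma) in old mice and -0.71 ± 0.40 (95% interval -1.57 to 0.15, adjusted p = 0.887 in limma) in young mice. Old minus young was -1.29 ± 0.40 (95% interval -2.15 to -0.43, adjusted p = 0.310 in limma) in tumor-bearing and -0.79 ± 0.36 (95% interval -1.56 to -0.02, adjusted p = 0.650 in limma) in cancer-free mice. Without young cancer-free replicate 3, the highest array, the difference was -0.46 for age in cancer-free mice and -0.38 for tumor in young mice. On average the age difference was -1.04 ± 0.27 (adjusted p = 0.125 in limma) and the tumor difference -0.96 ± 0.27 (adjusted p = 0.337 in limma). The tumor effects at the 2 ages differed by -0.50 ± 0.54 (adjusted p = 0.992 in limma), which ran from -0.24 without young tumor-bearing replicate 2 to -0.83 without young cancer-free replicate 3.

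Ccl3, which lies on chromosome 11 as Ccl4 does and shares its receptors, was more variable. Values of Ccl3 in old tumor-bearing mice were 4.65, 7.22 and 4.98, against 7.004, 5.54 and 8.35 in young tumor-bearing, 7.53, 7.09, 6.91, 6.80 and 5.80 in old cancer-free and 6.76, 7.72 and 7.27 in young cancer-free mice. In old tumor-bearing mice 2 arrays were lower than every other array, and the remaining one lay among the other groups. Its pooled within-group SD was 0.998, against 0.544 for Ccl4 and a median of 0.343 over all genes tested. Old minus young was -1.35 ± 0.71 (adjusted p = 0.538 in limma) in tumor-bearing mice. It was -0.65 without young tumor-bearing replicate 3 and -0.86 without old tumor-bearing replicate 1, and -2.06 without young tumor-bearing replicate 2 and -2.15 without old tumor-bearing replicate 2. Whether the probes of Ccl3 and Ccl4 measure them separately was not tested.

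Ccl5, a T cell and natural killer cell ligand on the same chromosome 11, varied little. Ccl5 was at 12.004, 11.85 and 11.59 in old tumor-bearing, 11.39, 11.78 and 11.82 in young tumor-bearing, 11.82, 11.94, 11.97, 12.47 and 12.10 in old cancer-free and 11.94, 12.15 and 11.96 in young cancer-free mice. All young tumor-bearing arrays were below all young cancer-free arrays, with a difference of -0.35 ± 0.20 (adjusted p = 0.887 in limma), or -0.21 without young tumor-bearing replicate 1. The mean tumor difference was -0.30 ± 0.14 (adjusted p = 0.486 in limma), or -0.17 without the 2 least correlated arrays (young tumor-bearing replicate 1 and old tumor-bearing replicate 3). The mean age difference was 0.10 ± 0.14 (adjusted p = 0.804 in limma).

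Ccl6 and Ccl9, myeloid chemokines on chromosome 11, varied widely within groups, Ccl6 with a pooled SD of 1.03. The Ccl9 values were 5.19, 5.12 and 7.55 in old tumor-bearing, 5.70, 6.98 and 7.34 in young tumor-bearing, 6.46, 5.68, 5.83, 4.37 and 4.62 in old cancer-free and 6.21, 6.59 and 7.22 in young cancer-free mice. Old and young arrays overlapped in both tumor states. Old minus young was -1.004 ± 0.45 (adjusted p = 0.353 in limma) on average and -1.28 ± 0.60 (adjusted p = 0.650 in limma) in cancer-free mice. Without the 2 least correlated arrays, a setting chosen after seeing the data, the average was -1.65 (adjusted p = 0.0642 in limma). Those 2 arrays held the highest old tumor-bearing value of Ccl9 (7.55) and the lowest young tumor-bearing one (5.70). Over all alternatives the adjusted p of the average in limma ranged up to 0.517. Values of Ccl6 in old tumor-bearing mice were 3.96, 3.65 and 5.85, against 3.66, 5.11 and 4.37 in young tumor-bearing, 6.61, 5.43, 5.01, 4.57 and 3.12 in old cancer-free and 5.57, 5.26 and 5.80 in young cancer-free mice. The young tumor-bearing arrays were all below the young cancer-free ones, with a difference of -1.16 ± 0.72 (adjusted p = 0.888 in limma). Neutrophil marker levels, as a mean over 12 genes, ranged from 5.69 to 6.26 in old tumor-bearing, 6.31 to 7.44 in young tumor-bearing, 5.32 to 7.39 in old cancer-free and 6.29 to 6.74 in young cancer-free arrays. Their part in these values was not tested.

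Xcl1, the XC ligand of natural killer and CD8 T cells, had lower values in old tumor-bearing than in old cancer-free mice. Xcl1 was at 9.79, 9.85 and 8.81 in old tumor-bearing, 9.65, 9.96 and 9.68 in young tumor-bearing, 10.57, 10.52, 10.03, 10.66 and 10.90 in old cancer-free and 9.995, 9.71 and 10.76 in young cancer-free mice. All 3 old tumor-bearing arrays lay below all 5 old cancer-free arrays, with a difference of -1.05 ± 0.29 (95% interval -1.66 to -0.44, adjusted p = 0.295 in limma). In young mice the groups overlapped, with -0.39 ± 0.32 (95% interval -1.08 to 0.29, adjusted p = 0.903 in limma), or -0.09 without cancer-free replicate 3 and -0.61 without cancer-free replicate 2. The average tumor difference was -0.72 ± 0.21 (adjusted p = 0.364 in limma), and the average age difference was 0.05 ± 0.21 (adjusted p = 0.944 in limma). Without old tumor-bearing replicate 3, its lowest array, the difference in old mice was -0.71.

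Natural killer cell markers also had lower values in tumor-bearing mice. The mean of all 10 listed genes was 7.62 to 8.0 in old tumor-bearing, 7.91 to 8.54 in young tumor-bearing, 8.09 to 8.62 in old cancer-free and 8.55 to 8.87 in young cancer-free arrays. In both ages no tumor-bearing array reached the lowest cancer-free one. In young mice the groups nearly touched, at 8.543 for the highest tumor-bearing and 8.548 for the lowest cancer-free array. For tumor in old mice 9 of the 10 had a negative difference (median -0.47), 0 passed in limma, and 4 were lower at unadjusted p under 0.05 (background 5.56%). For tumor in young mice 9 of 10 were negative (median -0.43), with 0 passing and 0 at unadjusted p under 0.05. No listed marker was below the floor on all arrays of a group, and the activating receptor Ncr1 averaged 8.02 ± 0.12 (SD, n = 3) in old tumor-bearing and 8.92 ± 0.53 (SD, n = 5) in old cancer-free mice. The part of these markers in the Xcl1, Ccl4 and Ccl5 values was not tested.

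The CXC ligands Cxcl9, Cxcl10 and Cxcl11 are induced by interferon gamma and share the receptor Cxcr3. The Cxcl9 values were 4.81, 4.71 and 6.60 in old tumor-bearing, 5.63, 5.93 and 6.22 in young tumor-bearing, 6.19, 4.39, 5.95, 6.36 and 6.13 in old cancer-free and 6.18, 6.98 and 8.78 in young cancer-free mice. Young cancer-free replicate 3 stood highest. Old minus young was -1.51 ± 0.59 (95% interval -2.77 to -0.25, adjusted p = 0.618 in limma) in cancer-free mice, and -0.78 without that array. Tumor-bearing minus cancer-free was -1.39 ± 0.66 (95% interval -2.80 to 0.02, adjusted p = 0.886 in limma) in young mice, and -0.66 without the same array. Values of Cxcl10 in old tumor-bearing mice were 4.06, 4.996 and 4.25, against 4.19, 3.90 and 4.20 in young tumor-bearing, 5.97, 4.0, 3.93, 4.05 and 4.13 in old cancer-free and 3.63, 4.50 and 5.03 in young cancer-free mice. Apart from old cancer-free replicate 1, its groups overlapped throughout. Cxcl11 stayed between 3.36 and 4.27 on all arrays, around the floor.

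Cxcl1, a neutrophil-attracting ligand of Cxcr2, was the one gene with a positive tumor difference at unadjusted p under 0.05. Cxcl1 was at 4.05, 4.25 and 4.30 in old tumor-bearing, 3.80, 3.74 and 3.63 in young tumor-bearing, 3.33, 3.43, 4.01, 3.23 and 3.14 in old cancer-free and 3.02, 3.70 and 3.71 in young cancer-free mice. All old tumor-bearing arrays were above every other array, and only these and 1 old cancer-free array exceeded the floor of 3.88. The gene thus passed the filter on dim genes only through the old tumor-bearing arrays, the group where it was highest. Its place among the tested genes is therefore not independent of this difference. In old mice the difference was 0.78 ± 0.22 (95% interval 0.31 to 1.24, adjusted p = 0.300 in limma), and in young mice 0.25 ± 0.24 (95% interval -0.27 to 0.77, adjusted p = 0.921 in limma), or 0.02 without cancer-free replicate 1. As the cancer-free means are under the floor, neither is an exact size. Its relatives Cxcl2, Cxcl3 and Cxcl5 were below the floor on every array.

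Higher values in old than in young tumor-bearing mice, at unadjusted p under 0.05, were found for 3 further ligands. They were Ccl7, a monocyte chemokine (0.44 ± 0.19, adjusted p = 0.435 in limma), Ccl1, a ligand of Ccr8 (0.41 ± 0.18, adjusted p = 0.468 in limma), and Cxcl13, the B cell chemokine (0.46 ± 0.21, adjusted p = 0.468 in limma). Old and young tumor-bearing arrays did not overlap for any of the 3. The Ccl7 values were 4.53, 4.36 and 5.06 in old tumor-bearing, 4.30, 4.21 and 4.10 in young tumor-bearing, 4.25, 4.34, 4.36, 4.50 and 4.43 in old cancer-free and 4.22, 4.23 and 4.30 in young cancer-free mice. The Ccl7 difference was 0.24 without old tumor-bearing replicate 3, its highest array. T cell markers were also higher in this comparison, with 10 of 11 positive (median 1.17), 0 passing in limma and 7 higher at unadjusted p under 0.05 (background 3.75%). Monocyte and macrophage markers were mostly lower there, with 7 of 8 negative (median -0.32). So were mature B cell markers, with 5 of 7 negative (median -0.29), and natural killer cell markers, with 8 of 10 (median -0.47). The part of any of these lists in the Ccl1, Ccl7 and Cxcl13 values was not tested. Ccl1 and Cxcl13 lay close to the floor, with a highest value of 4.23 and 4.41 in old tumor-bearing mice.

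Cxcl12, the niche ligand made by stromal cells, had overlapping values in all groups. Values of Cxcl12 in old tumor-bearing mice were 4.39, 4.48 and 4.32, against 4.49, 4.40 and 4.65 in young tumor-bearing, 4.28, 4.87, 4.33, 4.21 and 4.22 in old cancer-free and 4.53, 4.34 and 4.40 in young cancer-free mice. The average tumor difference was 0.05 ± 0.13 (adjusted p = 0.900 in limma) and the average age difference -0.08 ± 0.13 (adjusted p = 0.824 in limma). The interval of the age average runs from -0.36 to 0.19. Of 10 listed stromal cell markers, 6 passed the filter on dim genes and 4 did not. Lepr, a marker of the marrow stroma, was among the 4, between 1.38 and 2.14 on all arrays. Of the other ligands tested, Ccl2, Ccl22, Ccl25, Ccl27a, Ccl28, Cxcl16 and Cxcl17, none reached unadjusted p under 0.05 in any comparison. Ccl27a had 2 single-gene probes, and other probes for it and for its near-identical copies were annotated to several genes and not used.

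**Figure D2:**
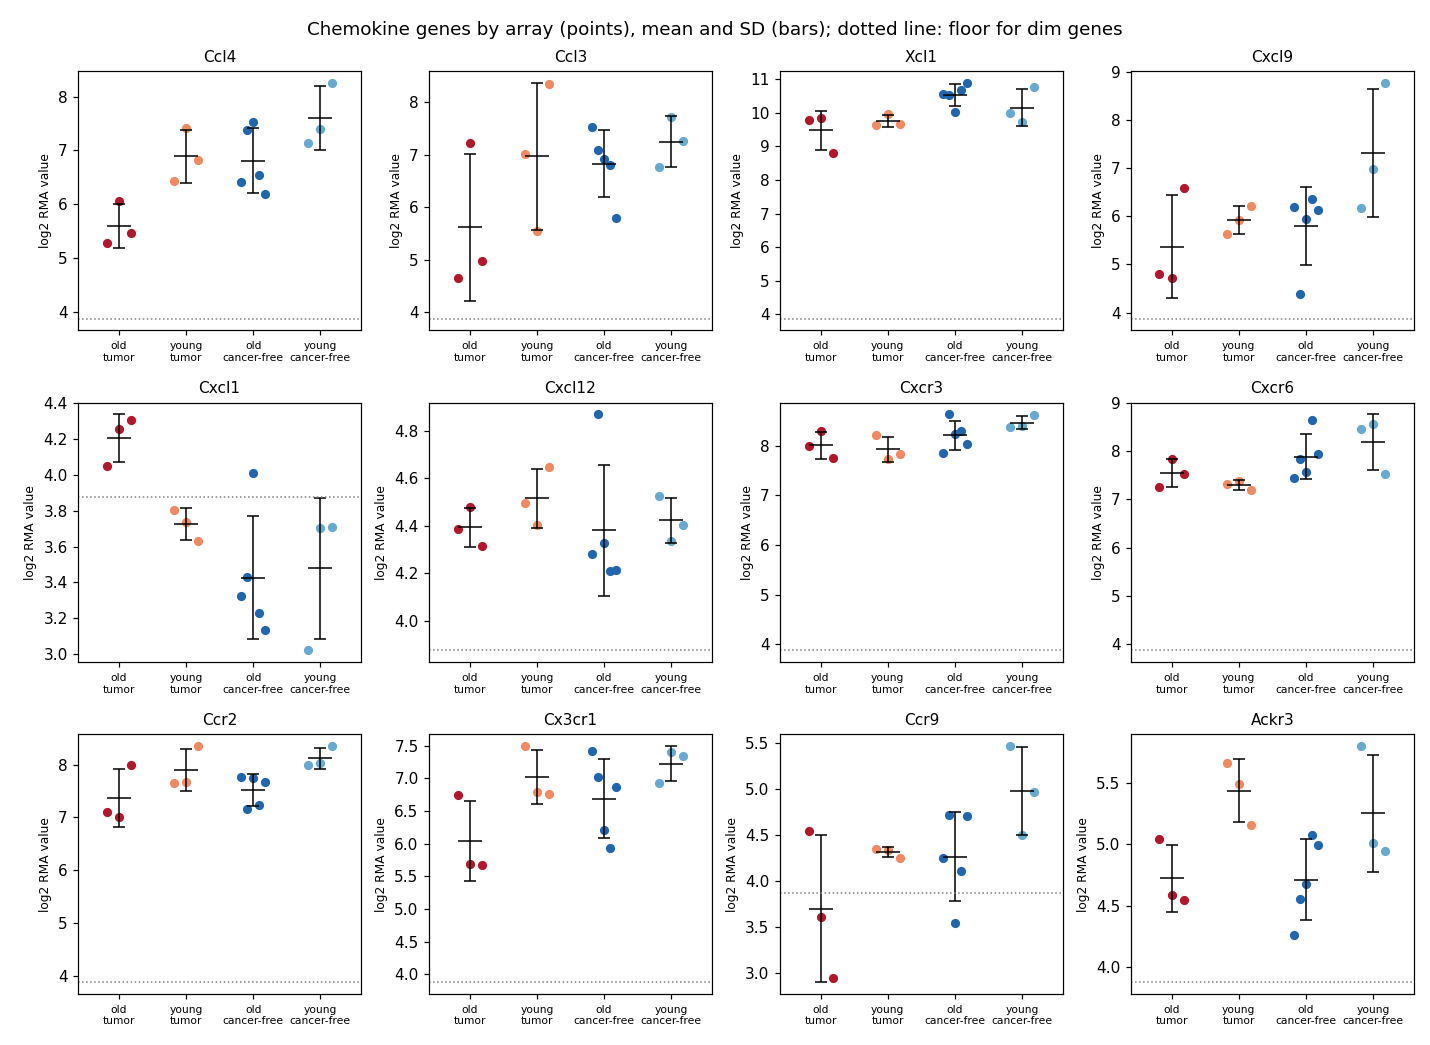
Log2 RMA values of 12 chemokine genes on each array (points), with mean and SD per group (bars), for old tumor-bearing, young tumor-bearing, old cancer-free and young cancer-free mice. The dotted line is the floor of 3.88. The old tumor-bearing points lie lowest for Ccl4 and highest for Cxcl1, and no difference shown passed adjustment over all genes. Cxcl1 passed the filter on dim genes only through the old tumor-bearing arrays.

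Among the receptors, Cxcr3 and Cxcr6, which mark activated and tissue-resident T cells and natural killer cells, had lower values in young tumor-bearing than in young cancer-free mice. Cxcr6 was at 7.26, 7.83 and 7.53 in old tumor-bearing, 7.33, 7.38 and 7.19 in young tumor-bearing, 7.43, 7.85, 7.57, 8.64 and 7.94 in old cancer-free and 8.46, 8.57 and 7.52 in young cancer-free mice. The 3 young tumor-bearing arrays were all below the 3 young cancer-free arrays, with a difference of -0.89 ± 0.32 (95% interval -1.57 to -0.20, adjusted p = 0.886 in limma). The Cxcr3 values were 7.99, 8.29 and 7.74 in old tumor-bearing, 8.21, 7.73 and 7.83 in young tumor-bearing, 7.84, 8.63, 8.24, 8.30 and 8.04 in old cancer-free and 8.37, 8.40 and 8.61 in young cancer-free mice. Here too the young groups did not overlap, with -0.54 ± 0.22 (95% interval -1.02 to -0.05, adjusted p = 0.886 in limma). In old mice both pairs of groups overlapped, at -0.35 ± 0.28 (adjusted p = 0.713 in limma) for Cxcr6 and -0.20 ± 0.20 (adjusted p = 0.767 in limma) for Cxcr3. For Cxcr6 this was -0.16 without old cancer-free replicate 4 and -0.21 without old tumor-bearing replicate 1. For Cxcr3 it was -0.07 and -0.35 without old tumor-bearing replicates 3 and 2, in that order. Leaving out old cancer-free replicate 2 gave -0.10. The effects at the 2 ages were not separated (old minus young 0.54 ± 0.43, adjusted p = 0.976 in limma, for Cxcr6 and 0.33 ± 0.30, adjusted p = 0.982 in limma, for Cxcr3).

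T cell markers, as a mean over 11 of 12 listed genes, were 8.21 to 8.63 in old tumor-bearing, 6.997 to 7.82 in young tumor-bearing, 7.68 to 8.60 in old cancer-free and 7.65 to 8.53 in young cancer-free arrays. For tumor in young mice 10 of 11 had a negative difference (median -0.81), of which 0 passed in limma and 2 were lower at unadjusted p under 0.05 (background 3.3%). For tumor in old mice 5 were positive and 6 negative (median -0.03), with 0 at unadjusted p under 0.05. None was below the floor on all arrays of a group, and Cd3e averaged 9.30 ± 0.61 in young tumor-bearing and 10.28 ± 0.51 in young cancer-free mice (SD, n = 3 each). Their part in the Cxcr3 and Cxcr6 values was not tested.

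Ccr2 and Cx3cr1, the receptors of classical and patrolling monocytes, had lower mean values in old mice. Values of Ccr2 in old tumor-bearing mice were 7.11, 7.01 and 8.0, against 7.65, 7.67 and 8.35 in young tumor-bearing, 7.77, 7.16, 7.74, 7.23 and 7.68 in old cancer-free and 7.99, 8.03 and 8.34 in young cancer-free mice. All old cancer-free arrays were below all young cancer-free arrays, with a difference of -0.60 ± 0.26 (95% interval -1.16 to -0.05, adjusted p = 0.637 in limma). In tumor-bearing mice the ages overlapped, with -0.52 ± 0.29 (95% interval -1.14 to 0.10, adjusted p = 0.569 in limma). This was -0.29 without young tumor-bearing replicate 3, -0.34 without old tumor-bearing replicate 2 and -0.83 without old tumor-bearing replicate 3. Cx3cr1 was at 6.75, 5.69 and 5.67 in old tumor-bearing, 7.49, 6.79 and 6.77 in young tumor-bearing, 7.42, 7.02, 6.21, 5.93 and 6.87 in old cancer-free and 6.93, 7.41 and 7.35 in young cancer-free mice. For this gene the tumor-bearing groups did not overlap, with -0.98 ± 0.39 (95% interval -1.81 to -0.15, adjusted p = 0.410 in limma), and the cancer-free groups did, with -0.54 ± 0.35 (95% interval -1.28 to 0.20, adjusted p = 0.731 in limma). On average old minus young was -0.56 ± 0.19 (adjusted p = 0.238 in limma) for Ccr2 and -0.76 ± 0.26 (adjusted p = 0.238 in limma) for Cx3cr1. Without the 2 least correlated arrays the averages were -0.78 for Ccr2 (adjusted p = 0.0795 in limma, with 0.413 as the highest over all alternatives) and -0.55 for Cx3cr1. The Cx3cr1 difference in tumor-bearing mice was then -0.56, and that in cancer-free mice was -0.35 without old cancer-free replicate 4. For Ccr2 the 2 least correlated arrays held the highest old tumor-bearing value (8.0) and the lowest young tumor-bearing one (7.65).

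Monocyte and macrophage markers are given beside these receptors. Their mean over 10 of 11 listed genes was 4.29 to 5.28 in old tumor-bearing, 5.07 to 5.33 in young tumor-bearing, 4.41 to 5.23 in old cancer-free and 4.72 to 5.16 in young cancer-free arrays. Cd14 was below the floor on all arrays, Ms4a7 on all old tumor-bearing and young cancer-free arrays, and Adgre1 on all old cancer-free arrays. In this list, for age on average 6 of the 8 tested markers were negative (median -0.32, 0 passing in limma and 2 lower at unadjusted p under 0.05, against 8.97% of all genes). For the same average the median was -0.99 for plasmacytoid dendritic cell and -0.35 for natural killer cell markers. It was -0.46 for neutrophil and 0.77 for T cell markers. The part of any of these lists in the Ccr2 and Cx3cr1 values was not tested.

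Ccr9, the receptor for Ccl25 that is known from thymocytes, gut-homing lymphocytes and plasmacytoid dendritic cells, had its lowest mean in old tumor-bearing mice. The Ccr9 values were 4.54, 3.61 and 2.95 in old tumor-bearing, 4.35, 4.34 and 4.25 in young tumor-bearing, 4.25, 4.72, 3.54, 4.11 and 4.71 in old cancer-free and 5.47, 4.51 and 4.97 in young cancer-free mice. The 3 young tumor-bearing arrays were below the 3 young cancer-free ones, and 2 of 3 old tumor-bearing arrays were under the floor. On average the age difference was -0.66 ± 0.26 (adjusted p = 0.293 in limma) and the tumor difference -0.62 ± 0.26 (adjusted p = 0.456 in limma). Plasmacytoid dendritic cell markers, as a mean over 9 of 10 listed genes, were 6.28 to 6.46 in old tumor-bearing, 7.19 to 8.03 in young tumor-bearing, 5.82 to 7.22 in old cancer-free and 6.93 to 7.86 in young cancer-free arrays. For age on average 8 of the 9 were negative (median -0.99, 0 passing in limma and 6 lower at unadjusted p under 0.05, against 8.97% of all genes). For tumor on average 5 of 9 were negative (median -0.19). Their part in the Ccr9 values was not tested.

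Cxcr4, the receptor of Cxcl12, had close group means. Values of Cxcr4 in old tumor-bearing mice were 9.74, 9.34 and 9.17, against 9.58, 9.77 and 9.64 in young tumor-bearing, 9.38, 9.72, 9.08, 10.24 and 9.13 in old cancer-free and 9.86, 9.69 and 9.51 in young cancer-free mice. All groups overlapped. The average tumor difference was -0.06 ± 0.18 (adjusted p = 0.924 in limma) and the average age difference -0.21 ± 0.18 (adjusted p = 0.661 in limma). The tumor average changed sign, to 0.03, without old cancer-free replicate 4 and, at 0.003, without old tumor-bearing replicate 3. Their intervals, -0.45 to 0.34 for tumor and -0.61 to 0.18 for age, do not show that the groups are alike.

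Cxcr2, the neutrophil receptor for Cxcl1, was high on 1 array. Cxcr2 was at 5.59, 5.23 and 5.05 in old tumor-bearing, 7.89, 5.55 and 5.83 in young tumor-bearing, 6.71, 5.74, 5.98, 5.57 and 5.53 in old cancer-free and 4.93, 6.19 and 5.82 in young cancer-free mice. Old minus young was -1.14 ± 0.52 (95% interval -2.25 to -0.03, adjusted p = 0.480 in limma) in tumor-bearing mice, and -0.40 without the high array. Neutrophil markers were also highest on that array (7.44), and their part was not tested. Cxcr1 stayed between 3.54 and 4.16 on all arrays.

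Ccr7, which guides T cells and dendritic cells to lymph nodes, varied widely within groups. The Ccr7 values were 7.93, 6.51 and 5.66 in old tumor-bearing, 5.56, 7.94 and 6.08 in young tumor-bearing, 5.98, 6.24, 8.23, 6.04 and 6.46 in old cancer-free and 7.40, 7.26 and 6.20 in young cancer-free mice. Its pooled within-group SD was 1.01 and its average age difference -0.10 ± 0.48 (adjusted p = 0.952 in limma), which ran from -0.40 without old tumor-bearing replicate 1 to 0.26 without young tumor-bearing replicate 2. Ccr10, the plasma cell receptor for Ccl28 and Ccl27a, ranged from 3.71 to 7.19, the highest being old tumor-bearing replicate 3. Ccr4, Ccr6, Ccr8 and Cxcr5, receptors of lymphocyte subsets, did not reach unadjusted p under 0.05 in any comparison. Over all genes tested, a within-group SD above the median of 0.343 was found for 22 of the 37.

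Of the atypical receptors, Ackr3 binds and removes Cxcl12 and Cxcl11. Values of Ackr3 in old tumor-bearing mice were 5.04, 4.58 and 4.55, against 5.67, 5.50 and 5.16 in young tumor-bearing, 4.26, 4.56, 4.68, 5.08 and 4.99 in old cancer-free and 5.80, 5.01 and 4.94 in young cancer-free mice. In tumor-bearing mice every old array was below every young one, with -0.71 ± 0.27 (95% interval -1.30 to -0.13, adjusted p = 0.399 in limma). Cancer-free groups overlapped, with -0.54 ± 0.25 (95% interval -1.07 to -0.01, adjusted p = 0.650 in limma), or -0.27 without young cancer-free replicate 1. The average age difference was -0.63 ± 0.18 (adjusted p = 0.182 in limma), while that for tumor was 0.10 ± 0.18 (adjusted p = 0.862 in limma). Ackr2, a scavenger of inflammatory CC chemokines, was between 3.82 and 4.69 on all arrays. Its old tumor-bearing arrays lay above the young ones, by 0.37 ± 0.20 (adjusted p = 0.565 in limma), or by 0.24 without young tumor-bearing replicate 1.

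**Figure D3:**
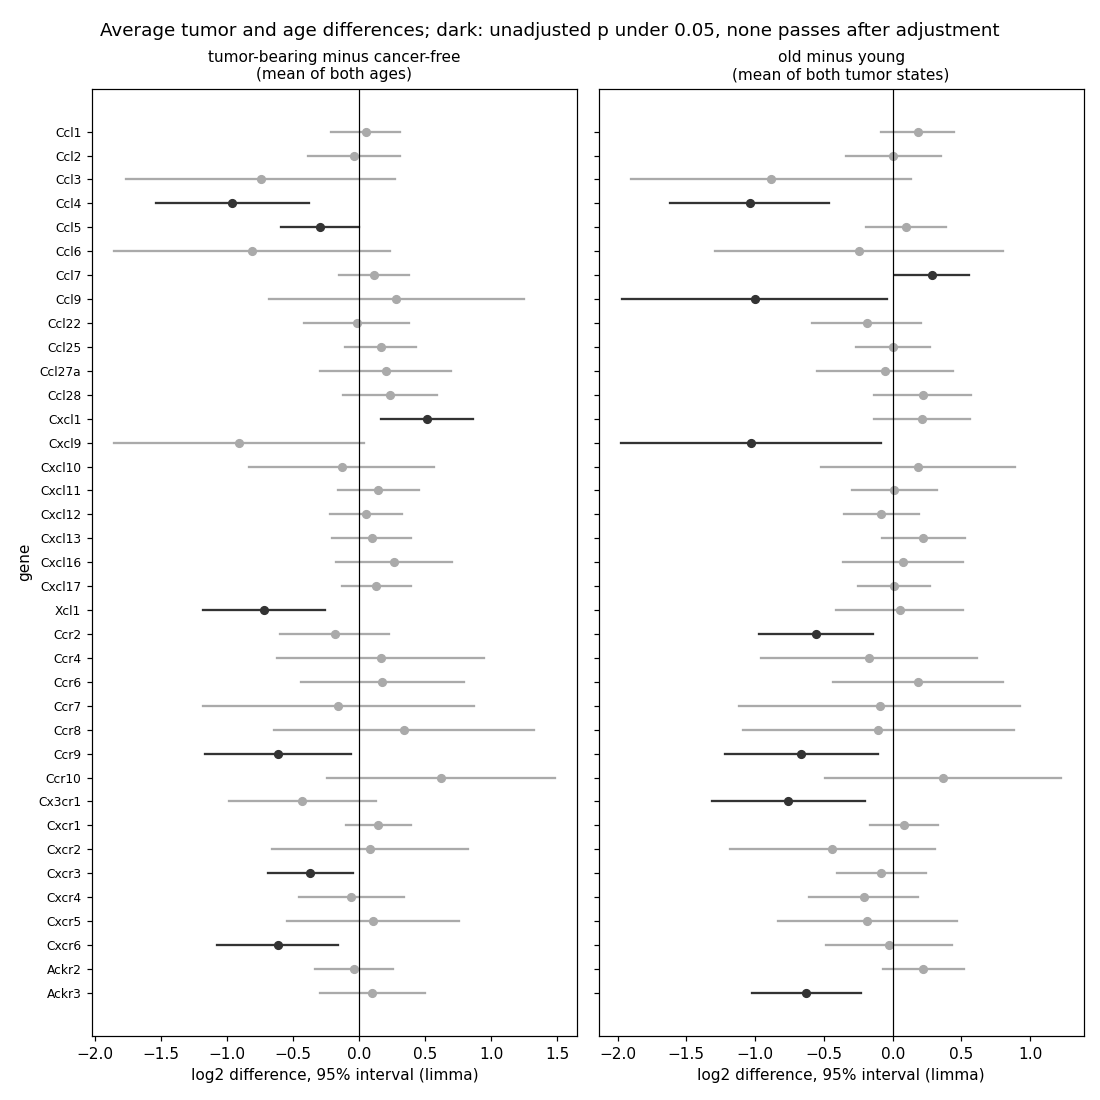
Average tumor-bearing minus cancer-free difference (left) and old minus young difference (right) of the 37 tested chemokine genes on the log2 scale, as points with 95% intervals from limma. The genes at unadjusted p under 0.05, drawn dark, are 7 on the left and 8 on the right, and none of them passed adjustment.

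Groups did not overlap for 7 of the 37 genes for tumor in young mice (background 12.9%), 3 for tumor in old mice (6.15%), 2 for old against young cancer-free mice (7.3%) and 8 for age in tumor-bearing mice (13%). As shares these are 18.9%, 8.11%, 5.41% and 21.6%. By direction the background was 5.56% higher and 7.37% lower for tumor in young mice, and 3.11% higher and 3.04% lower for tumor in old mice. It was 2.9% higher and 4.4% lower for age in cancer-free mice, and 5.94% higher and 7.1% lower for age in tumor-bearing mice. Of the 3 for tumor in old mice, Ccl4 and Xcl1 were lower and Cxcl1 higher. In young mice the 7 were Ccl5, Ccl6, Ccr9, Cxcr3 and Cxcr6, which were lower, and Ccl25 and Cxcr1, which were higher. Between old and young cancer-free mice, Ccr2 was lower and Cxcr1 higher. In tumor-bearing mice Ackr3, Ccl4 and Cx3cr1 were lower in old mice, and Ackr2, Ccl1, Ccl7, Cxcl1 and Cxcl13 higher. Cxcl1 was tested only because its old tumor-bearing arrays passed the filter on dim genes.

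Genes that carry chemokine signals inside the cell were also listed, and most had negative average differences. The list held G protein subunits, phosphoinositide 3-kinase and phospholipase subunits, receptor kinases, arrestins and regulators of Rac. Of its 30 genes 28 were tested, and 0 passed in limma in any comparison. For tumor on average 22 of the 28 had a negative difference (median -0.25, against -0.01 over all genes, of which 48.9% were above 0). At unadjusted p under 0.05, 8 were lower and 0 higher (background 6.01% and 4.23%). For age on average 23 were negative (median -0.17, against -0.01 over all genes, of which 48% were above 0), and 5 were lower and 0 higher at unadjusted p under 0.05 (background 8.97% and 4.44%). Among them were Grk6, a receptor kinase (-0.52 ± 0.18 for tumor), Rac2, the leukocyte Rac (-0.29 ± 0.12), Arrb2, an arrestin (-0.70 ± 0.29), and Elmo1, a partner of Dock2 in Rac activation (-0.46 ± 0.15 for age). Without the 2 least correlated arrays the Grk6 difference was -0.27, and without young tumor-bearing replicate 1 alone it was -0.31. The list mean was 6.96 to 7.26 in old tumor-bearing, 7.28 to 7.36 in young tumor-bearing, 7.25 to 7.39 in old cancer-free and 7.45 to 7.55 in young cancer-free arrays. No tumor-bearing array reached the lowest cancer-free array in young mice, while in old mice 1 of 3 lay within the cancer-free range.

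Receptors for other attractants were 11 genes, of which 7 were tested and 0 passed in limma. For tumor in young mice 6 of 7 were negative (median -0.76). S1pr4, a sphingosine-1-phosphate receptor, was at -0.76 ± 0.30, and Gpr183, the oxysterol receptor, at -0.77 ± 0.32. C3ar1, the C3a receptor, was below the floor on all young tumor-bearing arrays, so its difference has no exact size. In old mice 5 of 7 were positive (median 0.23). Of 5 chemokine genes that the symbol rule leaves out, Pf4, Ppbp, Xcr1 and Ackr1 did not pass the filter on dim genes. Ccrl2, a chemerin-binding relative of the receptors, ranged from 4.77 to 5.90 in old tumor-bearing, 5.03 to 6.24 in young tumor-bearing, 4.64 to 6.44 in old cancer-free and 5.66 to 6.19 in young cancer-free mice.

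**Figure D4:**
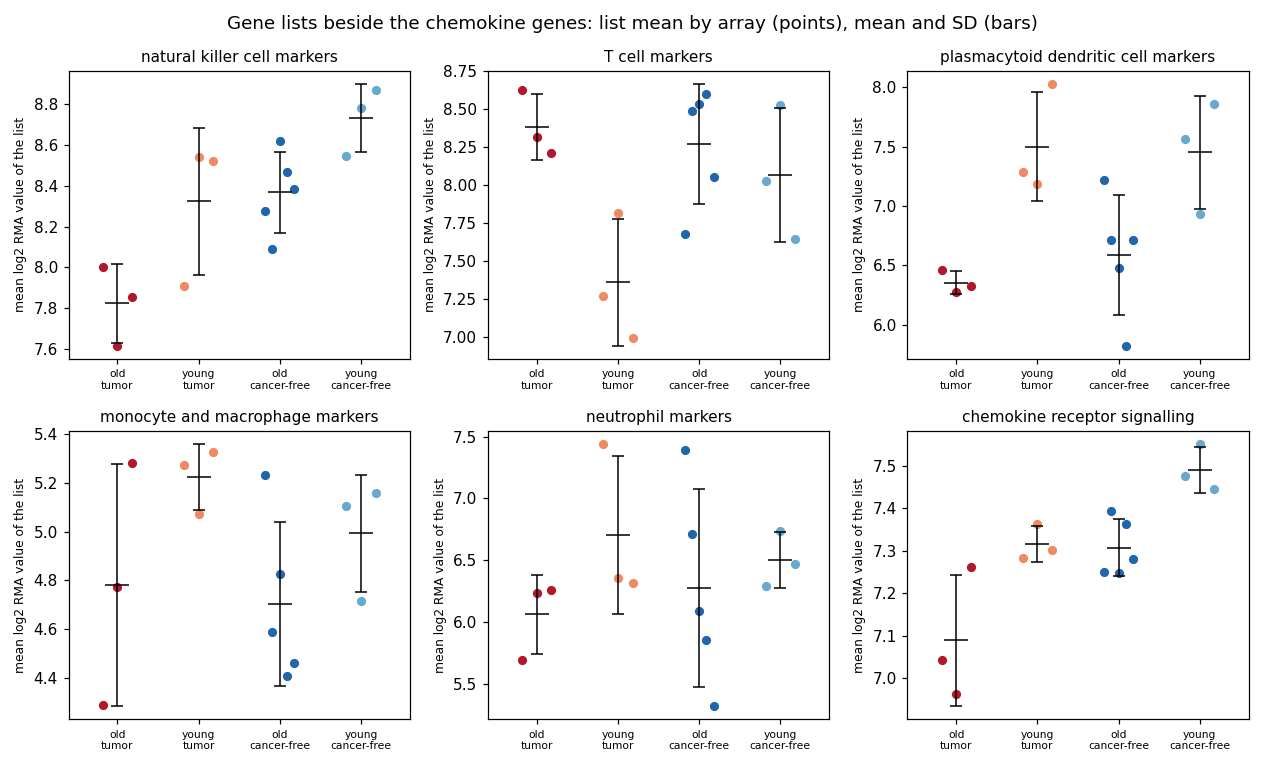
Mean log2 RMA value of 6 gene lists on each array (points), with mean and SD per group (bars), for old tumor-bearing, young tumor-bearing, old cancer-free and young cancer-free mice. Natural killer cell markers are at 7.62 to 8.0 in old tumor-bearing arrays and at 8.09 to 8.62 in old cancer-free arrays, and plasmacytoid dendritic cell markers do not overlap between old and young tumor-bearing arrays.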

How the data were processed

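The values were made by the authors with RMA (R 3.2.0 and oligo 1.32.0 are named, per the submitters' processing notes) and deposited as log2 values in 1 table of 41345 probes and 14 arrays. The sources used here give neither the set of arrays normalized together nor the array's genome build. Precision is limited by the number of arrays, 3 to 5 per group. Of the probes, 23521 had 1 gene symbol, 1814 had several and 16010 had none, and 23328 of the first kind matched RefSeq by Entrez number. For the 1082 genes with several probes the brightest was used. Genes above the table median (3.88) on at least 3 arrays were tested (13805). limma 3.58.1 (R 4.3.3) fitted a model of 4 group means, with 7 contrasts, moderated tests and Benjamini-Hochberg adjustment over all genes tested. The fit was tested on simulated data. Alternatives were other filters, the mean of probes, median centring, cyclic loess, a variance trend, array weights, a replicate block, fits of the compared groups alone and leaving out arrays. Named are all chemokine genes by the symbol rule, in detail the textbook genes of marrow cells and up to 8 with the smallest p per contrast, and up to 3 of each other list per contrast. Beyond it, Ncr1, Cd3e, Lepr, Cd14, Ms4a7, Adgre1 and Ccrl2 are mentioned, picked with their values known. The genes and lists were chosen with earlier results of these data known. Promoters are RefSeq GRCm38.p6.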

Additional observations from a re-analysis of the deposited data

Results flagged for a closer look

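In the 5 old cancer-free mice, 6 of the 37 tested chemokine genes had 1 array far from the other 4, with a gap to the nearest array of more than 0.71 of the whole range (Dixon's criterion). This is 16.2% of the 37, against 5.86% (809) of all 13805 genes tested. Chance alone gives about 1 in 20. Replicate 2 was the distant array for Ccr10 (3.71, nearest 5.105), Cxcl9 (4.388, nearest 5.948) and Cxcl12 (4.869, nearest 4.326). Replicate 3 was distant for Ccr7 (8.231, nearest 6.459) and Cxcl16 (5.715, nearest 4.797). Replicate 1 was distant for Cxcl10 (5.968, nearest 4.128). No chemokine gene passed limma's test of the difference in tumor effect between old and young mice.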

How the results depend on the processing

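The number of chemokine genes passing adjustment in limma was 0 in every comparison and every alternative, leave-one-out included (0 to 0). Of 1422 alternative runs of the 61 differences printed or at unadjusted p under 0.05, 15 changed sign, 0 passed, and the smallest adjusted p in limma was 0.0642. The 15 belong to 4 averages with small values. The Cxcl12 tumor average was -0.0033 with the replicate block. The Cxcr4 tumor average was 0.00709 with cyclic loess and 0.024 without the 2 least correlated arrays, and with 1 array left out it ran from -0.14 to 0.032. The Ccr7 age average was 0.00413 with cyclic loess and 0.018 with the block, and with 1 array left out it ran from -0.40 to 0.26. The Xcl1 age average was -0.00783 with median centring and -0.033 with the block, and with 1 array left out it ran from -0.061 to 0.22. Counts at unadjusted p under 0.05 also moved. With cyclic loess they were 1 for tumor in young mice, 4 for age in tumor-bearing mice and 5 for the age average. Fitting only the compared groups gave 5 for tumor in young mice and 4 for age in tumor-bearing mice. A stricter filter, which left 17 chemokine genes, gave 4 for age in tumor-bearing mice and 4 for the tumor average. Array weights gave 2 for age in tumor-bearing mice. Without the 2 least correlated arrays, an alternative chosen after seeing the data, the counts were 3 for age in tumor-bearing mice and 5 for the age average. Fewer genes tested or fewer arrays are part of some of these settings, and otherwise the cause was not tested. Leaving out 1 array at a time gave 1 to 4 for tumor in young mice, 3 to 6 for tumor in old mice, 2 to 6 for age in cancer-free mice and 2 to 7 for age in tumor-bearing mice. The same gave 0 to 2 for the interaction, 4 to 8 for the tumor average and 5 to 8 for the age average.

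The titles do not say whether the replicate numbers pair the mice. Over 18 same-numbered pairs the correlation of deviations from group means ran from -0.0762 to 0.0887. Pairs with different numbers ran from -0.134 to 0.102. Such values show no pairing but cannot exclude it. With the replicate block the interaction count was 2, against 0 without it, and 0 chemokine genes passed adjustment in limma. The small groups and the dim signal of the 17 untested genes limit what could be measured.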

Other observations

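Immediate early genes, which cells switch on within minutes of a stimulus, were listed because Ccl3 and Ccl4 are known to be induced in the same way. All 14 were tested and 0 passed in limma. Their mean level was 6.61 to 7.33 in old tumor-bearing, 6.16 to 7.12 in young tumor-bearing, 7.24 to 8.06 in old cancer-free and 6.45 to 6.95 in young cancer-free arrays. For tumor in old mice all 14 had a negative difference (median -0.42, against 0.01 over all genes), and 4 were lower at unadjusted p under 0.05 (background 5.56%). For age in cancer-free mice 11 were positive (median 0.83, against -0.04 over all genes), with 7 higher and 1 lower at unadjusted p under 0.05 (background 2.48% and 5.17%). For tumor in young mice 8 of the 14 were positive (median 0.05), and for age in tumor-bearing mice 9 were (median 0.33). Ccl4 and Ccl3 had a negative difference in each of these comparisons.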
